A study of Homo sapiens with 6 samples.

Results

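The genes described here are 41 genes of the NRF2 antioxidant programme and of the thiol systems that work beside it. They were taken from a written list, and a member was measured where the array had a probe set whose only gene symbol was that gene. This held for 40 of the 41 genes, with 96 probe sets between them, out of 18239 measured genes in all. PRDX5 is not analysed here. RNA came from LNCaP, an established cell line from a human prostate adenocarcinoma that responds to androgen, and was measured on U219 expression arrays from Affymetrix. The urolithin A group has 3 arrays of cells kept for 24 h with 40 µM urolithin A, a product that gut bacteria form from dietary ellagic acid. The control group has 3 arrays of cells that the titles call untreated, whereas the treatment protocol names saline. Both groups were cultured in F12 medium supplemented with fetal bovine serum. The solvent of urolithin A is not named. No label states whether replicates are separate cultures, so the p-values reflect array-to-array spread that could be technical.

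NRF2, encoded by NFE2L2, is a transcription factor that pairs with small MAF proteins and binds the antioxidant response element (ARE) in DNA. KEAP1 holds NRF2 in the cytoplasm and hands it to a CUL3 ubiquitin ligase until electrophiles or oxidants modify the cysteines of KEAP1, so NRF2 is controlled largely at the protein level. BACH1 occupies the same element as a repressor until heme releases it. The induced enzymes reduce quinones, break down heme, make glutathione and supply NADPH, which glutathione and thioredoxin use to reduce peroxides and protein thiols.

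The element that defines the programme could be looked for in the promoter windows of RefSeq (GRCh38.p14), which run from 250 bases before to 50 bases after the gene's start and were given for 33 of the 41 members. The ARE core TGACNNNGC, searched on both strands, was found in 6 of these 33 windows (18.2%), against 13.6% of all 27305 windows of that length. Among the members that were higher after urolithin A, 7 had a window, HMOX1 being without, and GCLM, PGD and ME1 held a match (42.9%). Of the 25 members with a window that did not pass the test, TXNRD1, GPX2 and MAFF held a match (12%). The difference between these small groups was not tested. The AP-1 site TGACTCA, which lies inside some ARE cores, was found in ME1, where it overlaps the ARE match, and in OSGIN1, against 4.92% of all windows. A match is a string of letters and not a binding site, and elements that lie further from the start are outside these windows. ME1 and TXNRD1 each held a further match, from 12 to 20 and from -8 to 1 relative to the start, which is not shown. For the 3 members that rose and for 2 that did not pass, 1 match each is shown 5′ to 3′ on the strand of the gene, with the ARE core in capitals. The matches shown run from -34 to -26 relative to the start in GCLM, -201 to -193 in PGD, -137 to -129 in ME1, -99 to -91 in TXNRD1 and -122 to -114 in GPX2. The printed stretches are chr1:93909431-93909504 on the minus strand for GCLM, chr1:10398823-10398911 on the plus strand for PGD, chr6:83431140-83431228 on the minus strand for ME1, chr12:104215640-104215728 on the plus strand for TXNRD1 and chr14:64942819-64942907 on the minus strand for GPX2.
GCLM: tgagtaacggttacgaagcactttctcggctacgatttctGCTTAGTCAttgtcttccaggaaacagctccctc
PGD: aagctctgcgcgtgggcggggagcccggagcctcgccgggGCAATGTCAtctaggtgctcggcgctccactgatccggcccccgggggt
ME1: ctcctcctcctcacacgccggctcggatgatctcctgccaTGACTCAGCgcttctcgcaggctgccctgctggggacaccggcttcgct
TXNRD1: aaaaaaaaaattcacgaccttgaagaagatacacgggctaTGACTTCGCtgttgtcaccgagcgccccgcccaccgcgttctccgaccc
GPX2: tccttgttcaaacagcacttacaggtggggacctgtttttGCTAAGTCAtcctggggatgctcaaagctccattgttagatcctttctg

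Each deposited value is a log2 value from which the median of the 3 control arrays had been subtracted, so a value is a difference from control cells and no level of a gene can be read. For the same reason the identity of the cells could not be checked against marker levels. Some arrays stood apart in features other than the treatment. HLA-DRA, a gene of antigen-presenting cells, had log2 values of -0.017, 1.17 and 3.09 in urolithin A replicates 1, 2 and 3, against 1.01, 0.032 and -0.023 in control replicates 1, 2 and 3. None of the 4 leukocyte markers (PTPRC, CD3E, HLA-DRA, CD68) passed, and their median log2 value was -0.0091, 0.25 and 0.26 in the urolithin A arrays, against 0.21, -0.0081 and -0.019 in the controls. None of the 4 fibroblast, 2 measured basal and 2 endothelial markers passed either. Of 7 measured luminal prostate markers, the androgen-regulated genes KLK3, KLK2 and TMPRSS2 were lower, FOLH1 was higher and 3 did not pass. The 18S ribosomal RNA probe sets had mean log2 values of 0.034, -0.22 and -0.48 in the urolithin A arrays, against 0.047, 0.015 and -0.45 in the controls. Results that rest on these arrays are also given without them. In bulk RNA, fewer cells of a type and less RNA per cell cannot be told apart.

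After urolithin A, 8 of the 40 measured members were higher, 1 was lower and 31 did not pass (limma, Benjamini-Hochberg adjusted p under 0.05 over all genes). The 8 were NQO1, HMOX1, EPHX1, GCLM, ME1, CAT, NQO2 and PGD, and the member that fell was GSR. Over all genes 4.85% were higher and 5.31% lower, or 10.2% in either direction. The median log2 change was 0.087 over the members and 0.010 over all genes. The median log2 value of the members was 0.065, 0.098 and 0.10 in urolithin A replicates 1, 2 and 3, against 0.0053, -0.0025 and -0.019 in control replicates 1, 2 and 3. The urolithin A arrays all lay above the control arrays for 13 members and all below them for 2, against 15.6% and 13.7% of all genes, or 29.3% for both together. Of the 31 members that did not pass, AKR1C1 had the largest estimated change, at 1.17-fold, and for 30 of them the whole 95% interval lay within 1.5-fold in either direction, the exception being GPX2.

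**Figure D1:**
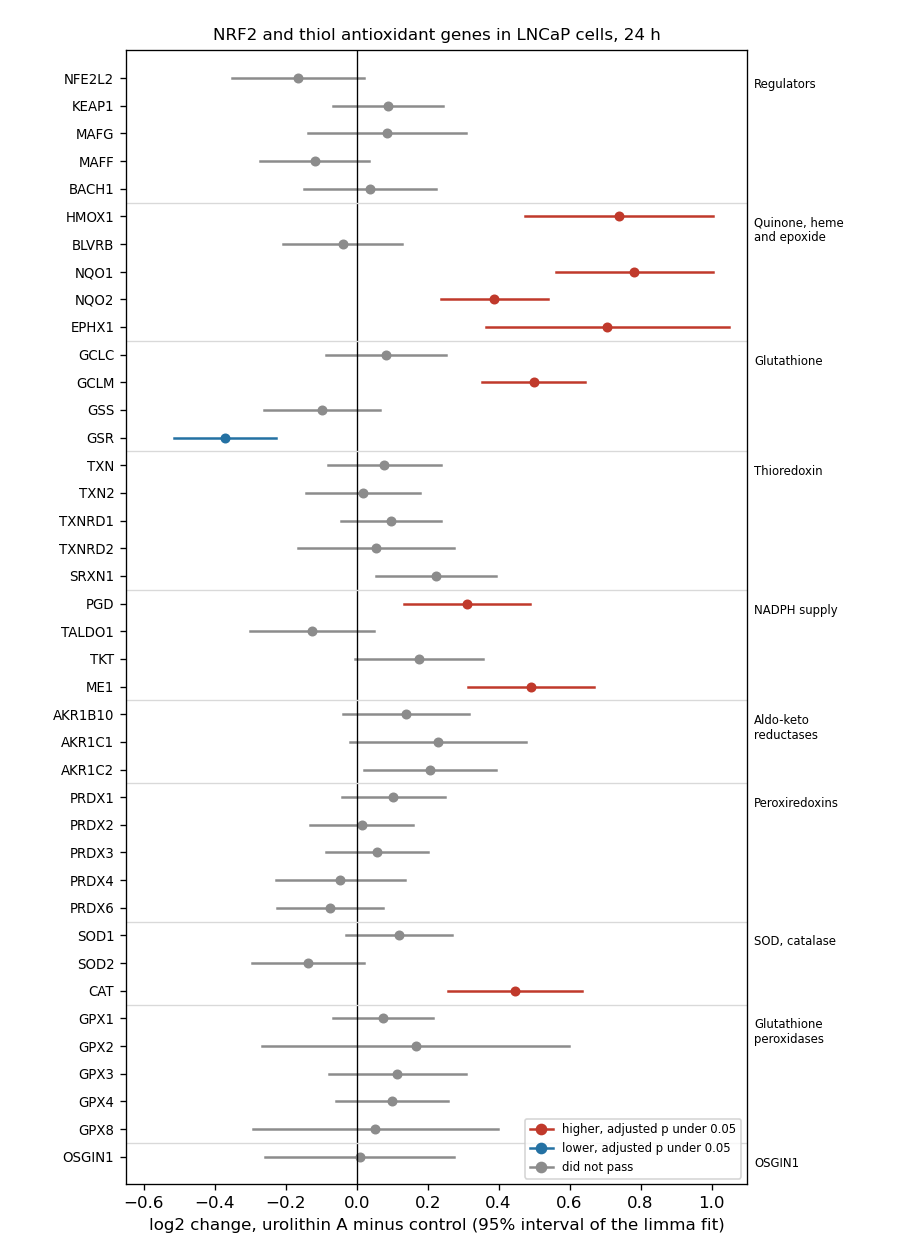
Log2 change of each of the 40 measured members, urolithin A minus control, with the 95% interval of the limma fit, ordered by role from top to bottom (red, higher; blue, lower; grey, did not pass). The 8 red points lie in the heme, quinone and epoxide, glutathione, NADPH and catalase groups, and the regulators and peroxiredoxins are all grey.

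None of the 5 regulators of the pathway passed the test, and with 10.2% of all genes passing in either direction, so small a group could lack a call. NFE2L2 had log2 values of -0.083, -0.31 and -0.14 in the urolithin A arrays, against 0.059, 0.0006 and -0.094 in the controls. The groups overlapped, and the log2 change was -0.17 (95% interval -0.35 to 0.020, adjusted p = 0.261 by limma). KEAP1, its negative regulator, had log2 values of 0.17, 0.10 and 0.0060 in urolithin A arrays, against 0.028, 0 and -0.015 in controls, a change of 0.088 with an interval of -0.067 to 0.24. BACH1, the repressor, had 0.032, -0.021 and -0.053 in urolithin A arrays, against -0.20, 0.069 and -0.028 in controls, and its interval ran from -0.15 to 0.22. Both genes overlapped between the groups.
The small MAF partner MAFF had log2 values of -0.091, -0.19 and -0.17 in urolithin A arrays, against 0, -0.10 and -0.0018 in controls (change -0.12, adjusted p = 0.335). For MAFG they were -0.11, 0.13 and 0.25 in urolithin A arrays and 0.082, -0.044 and -0.018 in controls (change 0.086, adjusted p = 0.664). The urolithin A arrays of MAFG spread more widely than its controls, on both sides of them.

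Of the 5 genes of heme breakdown, quinone reduction and epoxide hydrolysis, 4 rose. NQO1, which reduces quinones to hydroquinones, had log2 values of 0.74, 0.73 and 0.67 in the urolithin A arrays, against 0.080, 0 and -0.28 in the controls. The groups were far apart, and the mean was 0.71 ± 0.038 with urolithin A and -0.068 ± 0.19 in controls (SD, n = 3 each). This is a log2 change of 0.78 (SE 0.097), or 1.72-fold (adjusted p = 0.00219 by limma), and 0.422% of all genes had a higher change. NQO2, a related reductase that uses another nicotinamide cofactor, had 0.32, 0.43 and 0.34 in urolithin A arrays, against 0.013, -0.081 and 0 in controls. It rose 1.31-fold (adjusted p = 0.00915), from a single probe set.
HMOX1, the heme oxygenase that opens heme to biliverdin, iron and carbon monoxide, had log2 values of 0.46, 0.78 and 0.79 in the urolithin A arrays, against 0.073, -0.0024 and -0.25 in the controls. Urolithin A replicate 1 was the lowest of its group and still above every control. The log2 change was 0.74 (SE 0.12), or 1.67-fold (adjusted p = 0.00616). Control replicate 3, which was also low in 18S RNA, was the lowest control for NQO1 and for HMOX1, and without it their log2 changes were 0.67 and 0.64, with both still past the threshold. BLVRB, a reductase of biliverdin and flavins that acts after heme oxygenase, did not follow: its values were 0.043, 0.0058 and -0.0065 in urolithin A arrays, against 0.18, -0.017 and 0 in controls (change -0.039, interval -0.21 to 0.13).
EPHX1, the microsomal epoxide hydrolase, had log2 values of 0.78, 0.93 and 0.97 in the urolithin A arrays, against 0.57, 0 and -0.015 in the controls. Control replicate 1 stood well above the other controls, and it was also the control array with raised HLA-DRA. The log2 change of 0.71 (SE 0.15, adjusted p = 0.0211) became 0.90 (adjusted p = 0.00325) without that array. The call was lost without control replicate 2 or 3 (adjusted p = 0.0742 and 0.0648) and without urolithin A replicate 2 or 3 (adjusted p = 0.0662 and 0.0619), while the change stayed between 0.61 and 0.69.

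The 4 genes of glutathione metabolism moved in different ways. GCLM, the modifier subunit of glutamate-cysteine ligase, which starts glutathione synthesis, had log2 values of 0.53, 0.51 and 0.52 in the urolithin A arrays, against 0, 0.090 and -0.025 in the controls. The 3 treated arrays lay very close together (SD 0.0090, n = 3), and the change was 0.50 (SE 0.064), or 1.41-fold (adjusted p = 0.00252). This closeness is that of a mean of 2 probe sets that differed in urolithin A replicate 1, the highest treated array for the first and the lowest for the second. In urolithin A replicates 1, 2 and 3 they gave 0.86, 0.63 and 0.64 (SD 0.13), and 0.20, 0.39 and 0.40 (SD 0.12). GCLC, the catalytic subunit of the same enzyme, had 0.035, 0.036 and 0.13 in urolithin A arrays, against -0.11, 0.088 and -0.030 in controls. Its groups overlapped and the interval of its change ran from -0.085 to 0.25, which does not overlap the interval of 0.35 to 0.64 for GCLM. The difference between the subunits was not itself tested, and probe sets of both genes varied. Of the 4 GCLC probe sets, 1 changed by 0.29 with its groups apart (adjusted p = 0.126 by limma), and the others by -0.033 to 0.10. The GCLM probe sets changed by 0.70 and 0.30.
GSR, glutathione reductase, which returns oxidised glutathione to its thiol form with NADPH, had log2 values of -0.38, -0.32 and -0.41 in the urolithin A arrays, against -0.0013, -0.028 and 0.032 in the controls. All treated arrays lay below all controls, and the log2 change was -0.37 (SE 0.063, adjusted p = 0.00880 by limma). GSS, the synthetase of the second step, had values of -0.092, -0.12 and -0.083 in urolithin A arrays, against 0.11, -0.086 and -0.026 in controls, and did not pass (adjusted p = 0.467).

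**Figure D2:**
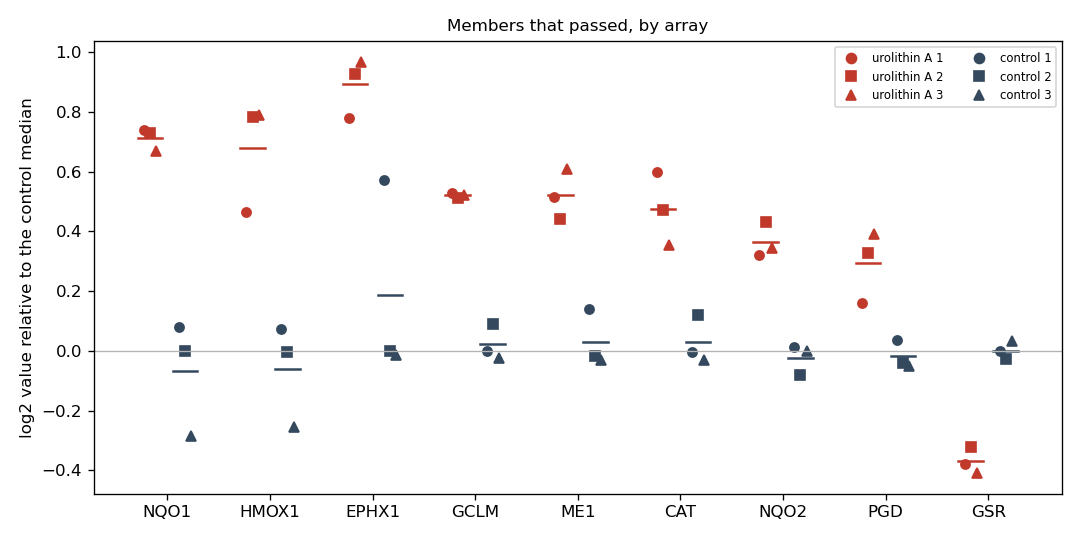
Log2 value relative to the control median on each array for the 9 members that passed, with urolithin A arrays in red on the left of each pair and controls in dark blue on the right; symbols mark replicates and bars the group means. The groups are apart in all 9 members, and control replicate 1 of EPHX1, at 0.57, lies above the other controls of its gene.

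None of the 5 thioredoxin genes passed, which in so few genes cannot be told from the 10.2% of all genes that passed in either direction. SRXN1, sulfiredoxin, which repairs overoxidised peroxiredoxins, came closest: its log2 values were 0.17, 0.20 and 0.14 in the urolithin A arrays, against 0.016, 0 and -0.18 in the controls. The groups were apart, and the change was 0.22 (interval 0.055 to 0.39, adjusted p = 0.102). TXNRD1, the cytosolic thioredoxin reductase whose window holds the ARE core shown above, had values of 0.052, 0.11 and 0.12 in urolithin A arrays, against 0.014, -0.042 and 0.012 in controls. Its groups were apart by a narrow margin and its change was 0.097 (adjusted p = 0.397). TXN, cytosolic thioredoxin, had a change of 0.078, and the mitochondrial pair TXN2 and TXNRD2 had changes of 0.018 and 0.054, all 3 with overlapping groups.

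Among the 4 genes that supply NADPH or feed the pentose phosphate pathway, 2 rose. ME1, the cytosolic malic enzyme, had log2 values of 0.52, 0.44 and 0.61 in the urolithin A arrays, against 0.14, -0.015 and -0.032 in the controls. It rose 1.41-fold (log2 change 0.49, SE 0.078, adjusted p = 0.00644). PGD, phosphogluconate dehydrogenase, had 0.16, 0.33 and 0.39 in urolithin A arrays, against 0.038, -0.039 and -0.051 in controls. It rose 1.24-fold (adjusted p = 0.0397), and among the fits without a single array its call held only without urolithin A replicate 1 (adjusted p = 0.0294). Leaving out any of the other 5 arrays took it past the threshold, to adjusted p from 0.0759 to 0.116. The non-oxidative enzymes did not pass. TKT, transketolase, had a log2 change of 0.17 (interval -0.0059 to 0.36), and TALDO1, transaldolase, one of -0.13 (interval -0.30 to 0.048).

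The aldo-keto reductases, which reduce aldehydes, ketones and steroids, did not pass as genes, but single probe sets of AKR1C2 were higher. AKR1C1 and AKR1C2 are close copies whose probes can share signal. As a mean of 5 probe sets AKR1C2 had log2 values of 0.086, 0.24 and 0.26 in urolithin A arrays, against -0.11, 0.10 and -0.023 in controls (change 0.21, adjusted p = 0.160). One of these probe sets gave 0.52, 0.83 and 1.31 in urolithin A arrays, against 0, 0.090 and -0.27 in controls, a change of 0.94 (adjusted p = 0.0189 over all probe sets). The other 4, all with names that mark shared sequence, had changes between -0.21 and 0.25, so the gene value averages probe sets that disagree. Without probe sets so marked, the AKR1C2 value rested on the rising probe set alone, with a change of 0.94 (adjusted p = 0.0158 by limma over all genes). A further probe set, listed with both AKR1C1 and AKR1C2 and left out of the gene values, had 0.46, 1.03 and 1.47 in urolithin A arrays, against -0.098, 0.11 and 0 in controls (change 0.98, adjusted p = 0.0278). Both of these probe sets were highest in urolithin A replicate 3, the array with the highest HLA-DRA, and both still passed without it. The AKR1C2 probe set did not pass without control replicate 1 or 3 or urolithin A replicate 2 (adjusted p up to 0.0620), nor the shared one without any single control or urolithin A replicate 2 (adjusted p up to 0.0885). AKR1C1 had a change of 0.23 (adjusted p = 0.245) and AKR1B10 one of 0.14 (adjusted p = 0.326).

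Of the enzymes that destroy superoxide and peroxides, CAT alone among 13 measured genes passed, a share near the 10.2% of all genes that passed in either direction. CAT, the catalase of peroxisomes, had log2 values of 0.60, 0.47 and 0.35 in the urolithin A arrays, against -0.0025, 0.12 and -0.032 in the controls. It rose 1.36-fold (log2 change 0.45, SE 0.083, adjusted p = 0.0122). The cytosolic superoxide dismutase gene SOD1 had 0.15, 0.18 and 0.070 in urolithin A arrays, against -0.015, 0.067 and -0.013 in controls (change 0.12, adjusted p = 0.320). The mitochondrial SOD2 pointed the other way, with -0.17, -0.0365 and -0.19 in urolithin A arrays, against -0.034, 0.036 and 0.013 in controls (change -0.14, adjusted p = 0.275). Both sets of arrays were just apart for these genes, on opposite sides.
The 5 measured peroxiredoxins, thiol enzymes that reduce hydrogen peroxide, had log2 changes from -0.075 for PRDX6 to 0.10 for PRDX1. Their intervals all lay between -0.23 and 0.25. The 5 glutathione peroxidases had changes from 0.052 for GPX8 to 0.17 for GPX2. GPX4, which reduces lipid hydroperoxides in membranes, had values of 0.047, 0.11 and 0.19 in urolithin A arrays, against 0, -0.021 and 0.082 in controls (change 0.098, interval -0.059 to 0.26). GPX2, whose window holds the ARE core shown above, had -0.080, 0.15 and -0.23 in urolithin A arrays, against 0, 0.039 and -0.70 in controls. The single low control makes its interval the widest of all members, -0.27 to 0.60, and without that control its change was -0.073. OSGIN1, a growth inhibitor gene induced by oxidative stress, had -0.30, 0.042 and 0.19 in urolithin A arrays, against 0.026, -0.077 and -0.042 in controls, and its change of 0.0084 changed sign under 7 of the 17 alternatives.

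Probe sets of a gene did not always share the gene's change. Of the 96 probe sets, 12 were higher and 2 lower (limma, adjusted over all probe sets), against 4.04% and 4.42% of all probe sets with a single symbol. All 3 probe sets of HMOX1 and both of NQO1 and CAT passed. For GCLM and ME1, 1 of 2 passed, with changes of 0.70 and 0.30 for GCLM and 0.69 and 0.30 for ME1. GSR also rested mainly on 1 of its 2 probe sets, at -0.57 (adjusted p = 0.00828) and -0.17. Neither probe set of PGD passed on its own, at 0.27 and 0.35. For SOD2, 1 of 4 probe sets was lower, at -0.50 (adjusted p = 0.0338), while another was at 0.13. That call was lost without control replicate 2 or 3 or urolithin A replicate 1 or 3 (adjusted p up to 0.105). The probe sets of NQO1 and the passing ones of GCLM, ME1 and GSR passed without each array, as did 1 of the 3 of HMOX1, whereas the single probe set of NQO2 lost its call without each array (adjusted p from 0.0539 to 0.0866) and those of CAT reached adjusted p up to 0.106. The single probe set of EPHX1 kept its call without control replicate 1 and lost it without each other array (adjusted p up to 0.0960). Among the 31 members with several probe sets, 20 had all of them on the same side of 0.

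**Figure D3:**
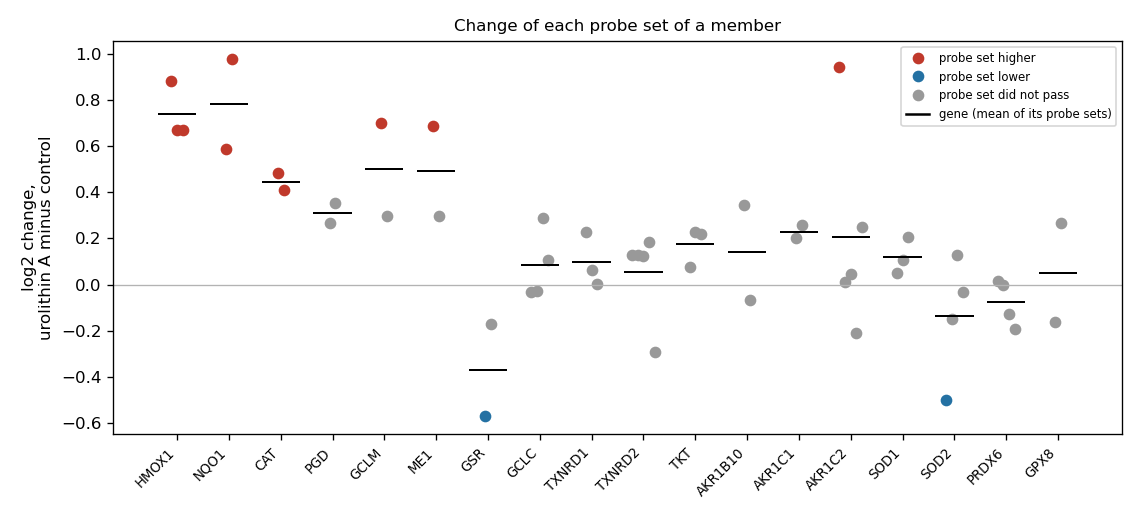
Log2 change of each probe set (points) of 18 members with several probe sets, urolithin A minus control, and the mean that serves as the gene value (black bars); red probe sets were higher, blue lower and grey did not pass. The probe sets of AKR1C2 run from -0.21 to 0.94, and those of SOD2 from -0.50 to 0.13.

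Further genes of the pathway give the setting of these members. The counts of each list stand beside 4.85% higher and 5.31% lower over all genes, whose median log2 change was 0.010. Among 12 measured genes that control NRF2 or share its element, 2 rose and none fell, with a median log2 change of -0.055. SQSTM1, the autophagy receptor that also binds KEAP1, had log2 values of 0.47, 0.49 and 0.53 in the urolithin A arrays, against 0.10, -0.0063 and -0.14 in the controls (adjusted p = 0.00524). CUL3, the scaffold of the ligase that degrades NRF2, had 0.29, 0.19 and 0.30 in urolithin A arrays, against 0.011, 0.0023 and -0.040 in controls (change 0.27, adjusted p = 0.0334), a call that was lost without each single array, at adjusted p from 0.0509 to 0.0979.
Among 19 other genes listed as NRF2 targets, 2 rose and 3 fell, with a median log2 change of 0.0062. TRIM16, a ubiquitin ligase of the stress response, had log2 values of 0.63, 0.79 and 0.74 in urolithin A arrays, against 0.095, 0 and -0.10 in controls (1.65-fold, adjusted p = 0.00112). AKR1C3, a steroid-reducing enzyme close in sequence to AKR1C1 and AKR1C2, had 0.26, 0.56 and 0.39 in urolithin A arrays, against -0.11, -0.014 and 0.15 in controls (adjusted p = 0.0406). It was named after its values were seen, and it did not pass without control replicate 1 or 2 or urolithin A replicate 2 or 3 (adjusted p up to 0.127). The exporter genes ABCC4 and ABCC1 fell, at log2 changes of -1.27 (adjusted p = 0.000709) and -0.34 (adjusted p = 0.0202), and so did TSKU, a secreted proteoglycan gene, at -0.53 (adjusted p = 0.0153). For ABCC1 the call held without control replicate 2 and failed without each other array (adjusted p up to 0.0732), and for TSKU it was lost without control replicate 1 (adjusted p = 0.0547). SLC7A11, the cystine importer that feeds glutathione synthesis, was also named after its values were seen. It had log2 values of 0.018, 0.017 and 0.42 in urolithin A arrays, against 0, -0.14 and 0.33 in controls, and replicate 3 was the highest in both groups.
Among 24 further thiol enzymes and their inhibitors, 3 rose and 3 fell, with a median log2 change of -0.018. SESN1 and SESN2, sestrins that are also targets of p53, rose by 0.92 (adjusted p = 0.00110) and 0.72 (adjusted p = 0.00180) on the log2 scale. TXNIP, which binds and inhibits thioredoxin, had 0.82, 0.74 and 1.11 in urolithin A arrays, against -0.098, -0.013 and 0.066 in controls (1.87-fold, adjusted p = 0.00141). GLRX2, the mitochondrial glutaredoxin, had -0.88, -0.82 and -1.16 in urolithin A arrays, against 0, 0.041 and -0.017 in controls, a change of -0.96 (adjusted p = 0.000795). ERO1A, an oxidase that forms disulfides in the endoplasmic reticulum, fell by 0.53 on the log2 scale (adjusted p = 0.00209), and GGCT, an enzyme of glutathione breakdown, by 0.31 (adjusted p = 0.0191). ERO1A and GGCT were named after their values were seen. The call of GGCT was lost without control replicates 2 or 3 or urolithin A replicates 2 or 3, at adjusted p up to 0.0646. Of 8 genes of selenoprotein synthesis, on which thioredoxin reductases and several glutathione peroxidases depend, SCLY, which recycles selenium, fell by 0.31 (adjusted p = 0.0294) and 7 did not pass. The call of SCLY was kept without urolithin A replicate 1 and lost without each other array, at adjusted p up to 0.0972.

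**Figure D4:**
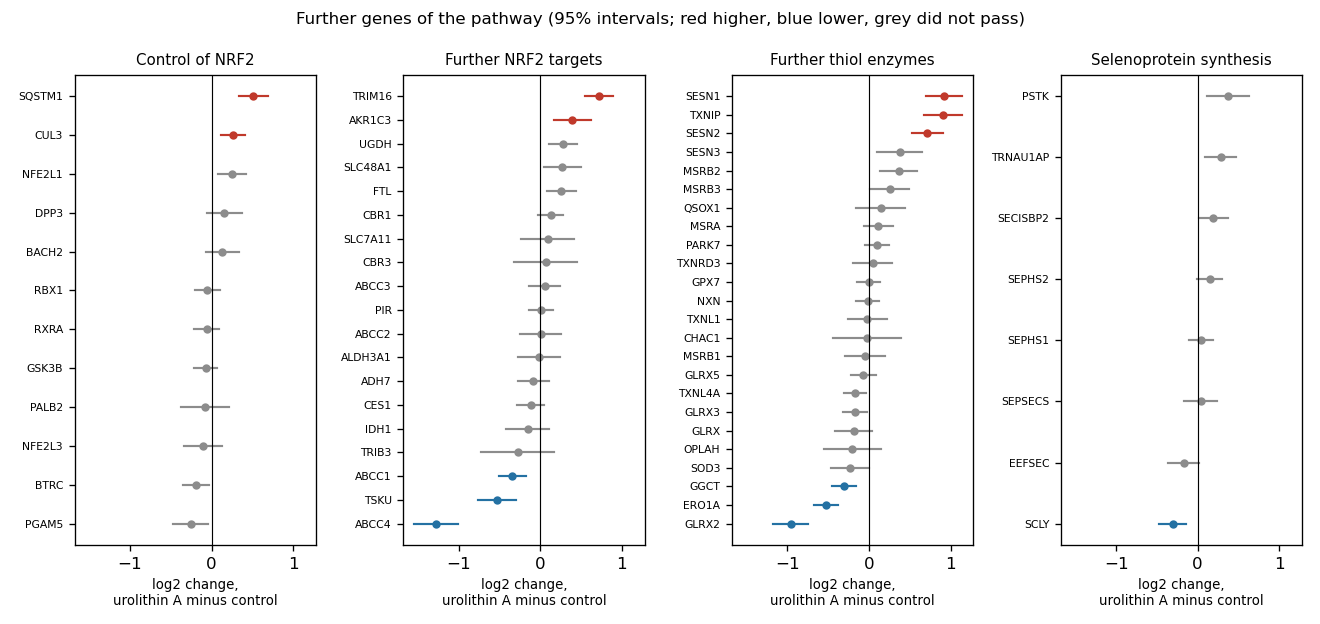
Log2 change with its 95% interval, urolithin A minus control, for further genes of NRF2 control, NRF2 targets, thiol enzymes and selenoprotein synthesis (red, higher; blue, lower; grey, did not pass). ABCC4 at -1.27 and GLRX2 at -0.96 lie lowest, and SESN1 at 0.92 and TXNIP at 0.91 highest.

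The calls differed in how far they depended on single arrays and settings. NQO1, HMOX1, GCLM, ME1, CAT, NQO2 and GSR passed in the gene fit without each of the 6 arrays in turn. NQO2 has a single probe set, and in the probe set fit the same values lost their call without each array. Without control replicate 1 and urolithin A replicate 3, both with raised HLA-DRA, NQO2 (adjusted p = 0.0595) and GSR (adjusted p = 0.0798) no longer passed, with log2 changes of 0.42 and -0.35, and neither did PGD. Urolithin A replicate 2, with HLA-DRA at 1.17, stayed in this fit, so it was not free of arrays with raised HLA-DRA. Without control replicate 3 and urolithin A replicate 3, both low in 18S RNA, ME1, NQO2, GSR, EPHX1 and PGD did not pass, and NQO1, HMOX1, GCLM and CAT did. With urolithin A replicate 1 alone against control replicates 2 and 3, the arrays on which HLA-DRA was not raised, limma called 0 members (8 at an unadjusted p under 0.05, or 20% of members, against 16.3% of all genes), and the lone array was assumed to vary like the others. The log2 changes there were 0.88 for NQO1, 0.59 for HMOX1, 0.50 for GCLM and -0.38 for GSR. From all 6 arrays they were 0.78, 0.74, 0.50 and -0.37. For EPHX1, ME1, NQO2 and PGD they were 0.79, 0.54, 0.36 and 0.21, against 0.71, 0.49, 0.39 and 0.31 from all 6 arrays. CAT, with a change of 0.45 from all 6 arrays, had 0.60 in urolithin A replicate 1, against 0.12 and -0.032 in control replicates 2 and 3. These arrays are part of both fits, so the changes are not independent of each other. When arrays were scaled on the hybridization controls, 5 members were higher and 0 lower, and CAT, NQO2, PGD and GSR lost their calls. Those controls had mean log2 values of -0.0040, -0.26 and 0.16 in urolithin A replicates 1, 2 and 3, against 0.0088, 0.033 and -0.049 in control replicates 1, 2 and 3.

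**Figure D5:**
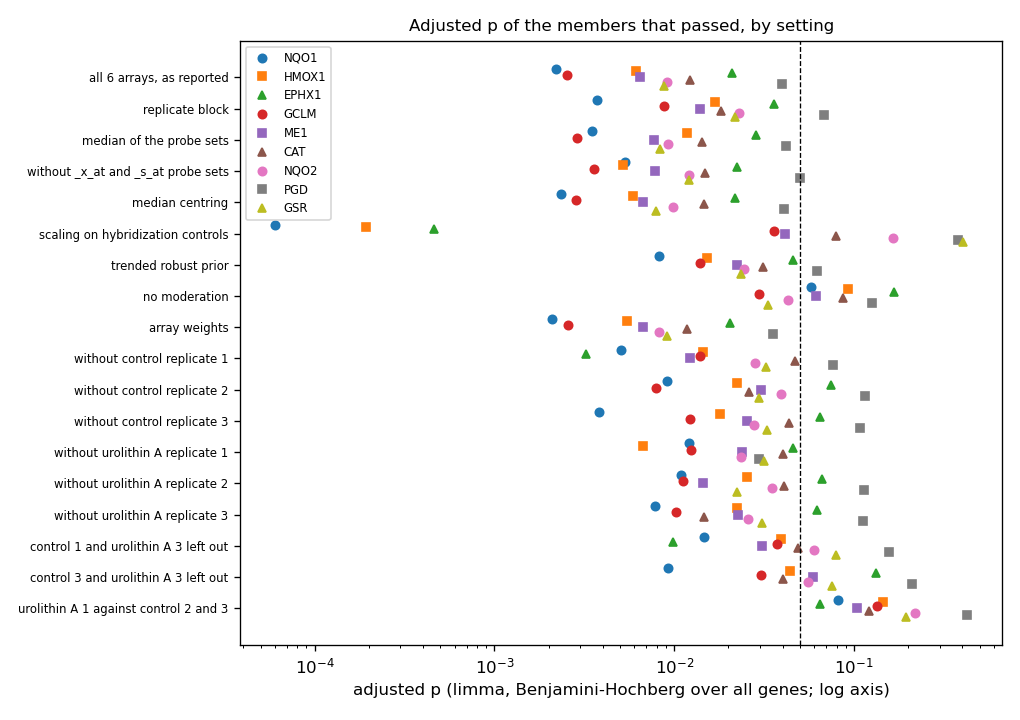
Adjusted p (log axis) of the 9 members that passed, under each setting of the fit, with a dashed line at 0.05. GCLM stays left of the line in every setting except urolithin A replicate 1 alone against control replicates 2 and 3, and PGD lies right of it in most.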

How the data were processed

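The authors deposited a table of log2 values for 49386 probe sets, produced by RMA per the submitters' processing notes (version not given in the sources used here). All 49386 have a median of 0 over the control arrays, so values are differences from that median; a base of 2 is assumed from RMA. Probe sets were named from the platform annotation: 45253 had a single symbol, 1327 several and 2713 none, beside 93 control probe sets. A gene's value is the mean of its probe sets with that single symbol. The model, with a single treatment term, was fitted by lmFit and eBayes of limma 3.58.1 (R 4.3.3; two-sided), with Benjamini-Hochberg adjustment over 18239 genes and a threshold of 0.05, and probe sets likewise. The fit was tested on simulated data, where it recovered 26.9% of changes of 1.25-fold, 97% of 1.5-fold and 100% of 2-fold. Small changes can therefore go uncalled. Array values are given by rule for members that passed, the 5 regulators and paralogs of members that passed; further members, and the list genes named as such, were chosen after their values were seen. From each further list the rule names up to 4 passing genes of smallest p. Members, gene lists and tests were chosen with earlier results of these data known. No filter on low values was possible. No batch, plate or scan date was used. The number of arrays limits the precision, and no 2 arrays held identical values.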

Additional observations from a re-analysis of the deposited data

How the results depend on the processing

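The counts of 8 higher and 1 lower member became 5 and 0 with scaling on the hybridization controls, 4 and 0 without control replicate 3 and urolithin A replicate 3, 6 and 0 without control replicate 1 and urolithin A replicate 3, 2 and 1 without moderation, 5 and 1 at an adjusted p under 0.01, 3 and 0 with a fold of at least 1.5, and 0 and 0 with only urolithin A replicate 1 and controls 2 and 3, a comparison chosen after seeing the data. Without each array in turn, 6 to 8 members were higher and 1 lower. In the probe set fit, 5 to 8 probe sets of members were higher and 1 to 2 lower without each array, against 12 and 2. Over all genes, 885 higher and 969 lower became 334 and 312 with scaling on the hybridization controls, 574 and 718 with a trended robust prior, 262 and 298 without moderation, 320 and 385 without control replicate 1 and urolithin A replicate 3, 386 and 455 without control replicate 3 and urolithin A replicate 3, 15 and 33 with only urolithin A replicate 1 and controls 2 and 3, 272 and 370 at an adjusted p under 0.01, 179 and 270 with a fold of at least 1.5, and 482 to 628 and 581 to 681 without each array. Fewer arrays and stricter thresholds make fewer calls by construction, and for the other settings the cause was not tested. Of 680 comparisons of a member under an alternative with its reported result, 612 kept direction and call, 38 lost the call, 2 gained it and 28, in 11 members, turned sign, with 0 of these past the threshold on either side. Only the 9 members that passed had a call to lose, and most comparisons are of the 31 that did not pass. Of 17 alternatives, GCLM kept its call under 16, NQO1 and HMOX1 under 15, and ME1 and CAT under 14. NQO2 and GSR kept it under 13, EPHX1 under 10 and PGD under 5. Without each array in turn, the log2 changes that turned ran from -0.035 to 0.099 for BACH1, -0.074 to 0.023 for BLVRB, -0.073 to 0.30 for GPX2, -0.078 to 0.20 for GPX8, -0.097 to 0.15 for OSGIN1, -0.018 to 0.033 for PRDX2, -0.10 to 0.0026 for PRDX4, -0.015 to 0.071 for TXN2 and -0.0062 to 0.14 for TXNRD2. Without control replicate 1 and urolithin A replicate 3, BACH1 was at -0.015, BLVRB at 0.033, GPX8 at -0.14 and OSGIN1 at -0.068. Without control replicate 3 and urolithin A replicate 3, MAFG was at -0.0065, OSGIN1 at -0.10 and TXN2 at -0.0059. With only urolithin A replicate 1 and controls 2 and 3, AKR1C1 was at -0.051, BLVRB at 0.052, GPX8 at -0.045, MAFG at -0.078 and OSGIN1 at -0.24. OSGIN1 was at -0.0017 with median centring, and GPX8 at -0.16 without probe sets whose names mark shared sequence. TKT passed with the median of its probe sets (adjusted p = 0.0445), and AKR1C2 without those probe sets (adjusted p = 0.0158). With the replicate number as a block, 7 members were higher and 1 lower, PGD being lost (adjusted p = 0.0683), 860 genes were higher and 1003 lower, and 11 probe sets of members were higher and 2 lower. The labels give no shared source to arrays of a number, the deviations of same-numbered arrays correlated at 0.078, 0.022 and 0.20, and not every array correlated best with its own number. The trended prior was fitted on centred values, which hold no level.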
